A study of Homo sapiens with 12 samples.

Results

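The proximal tubule line HK-2, derived from human kidney and immortalised, was examined for 10 genes of secreted inflammatory signals: the chemokines CXCL1, CXCL2, CXCL3, CXCL5, CXCL8, CCL2 and CCL20 and the cytokines IL6, LIF and IL1A. The genes were taken by name, and each was followed through the Affymetrix probe set of its own whose mean over 12 arrays was highest. They are 10 of 19775 genes with a probe set of their own symbol, and 7 of them were among the 10508 genes tested, which had a log2 value above 4 on at least 3 arrays of a group. CXCL1, CCL2 and IL1A did not reach that level. Messenger RNA was measured in 4 groups of 3 biological replicates: control cells at 12 h, cells exposed to CsA for 12 h, control cells at 48 h and cells exposed to CsA for 48 h. CsA is read as cyclosporine A, an immunosuppressant that blocks calcineurin and can damage the kidney, and the labels used here give no dose. Controls received the vehicle, and all 4 groups grew in a defined medium with EGF, insulin, transferrin, selenium and hydrocortisone, a glucocorticoid. All groups are of 1 cell line, so the replicates measure spread between cultures of that line and not between people.

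Chemokines are small secreted proteins that draw leukocytes along a gradient. CXCL1, CXCL2, CXCL3, CXCL5 and CXCL8 share an ELR motif and attract neutrophils through CXCR2, CCL2 attracts monocytes through CCR2, and CCL20 attracts cells that carry CCR6. IL6 and LIF signal through the shared receptor chain IL6ST, and IL1A is an alarm cytokine that turns on NF-kB in neighbouring cells. Injured tubular epithelium is known to release several of these proteins, and NF-kB and AP-1 are the transcription factors best known to switch their genes on.

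The 5 CXCL genes lie in a cluster on chromosome 4 and share promoter letters, so the promoters of the CXCL members and of IL6 are shown to set the similar control regions beside the unlike RNA values that follow. RefSeq promoter windows of GRCh38.p14, 250 bases before to 50 bases after the start, were found for 8 of the 10 genes. The lines below give, 5′ to 3′ on the gene's strand, the stretch from 140 bases before the start to 20 bases after it. Capitals mark matches to GGANTTTCC or GGGANNTTC (NF-kB-like, either strand, the spellings overlap), TGANTCA (AP-1-like, either strand) and TATAAA (the gene's strand only).
CXCL1 (chr4:73869253-73869412, plus strand): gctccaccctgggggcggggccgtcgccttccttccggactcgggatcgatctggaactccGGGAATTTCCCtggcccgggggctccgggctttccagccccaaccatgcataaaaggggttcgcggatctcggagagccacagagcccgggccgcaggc
CXCL2 (chr4:74099176-74099335, minus strand): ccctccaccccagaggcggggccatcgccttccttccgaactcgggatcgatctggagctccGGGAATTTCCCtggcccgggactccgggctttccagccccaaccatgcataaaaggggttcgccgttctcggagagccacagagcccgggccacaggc
CXCL3 (chr4:74038670-74038829, minus strand): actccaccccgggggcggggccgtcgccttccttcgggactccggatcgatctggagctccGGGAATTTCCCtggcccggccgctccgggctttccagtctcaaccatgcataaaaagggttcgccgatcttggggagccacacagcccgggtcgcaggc
CXCL5 (chr4:73998658-73998817, minus strand): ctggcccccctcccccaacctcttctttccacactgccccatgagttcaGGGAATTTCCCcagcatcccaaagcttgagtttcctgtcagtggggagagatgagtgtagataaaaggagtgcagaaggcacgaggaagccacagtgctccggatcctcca
CXCL8 (chr4:73740429-73740588, plus strand): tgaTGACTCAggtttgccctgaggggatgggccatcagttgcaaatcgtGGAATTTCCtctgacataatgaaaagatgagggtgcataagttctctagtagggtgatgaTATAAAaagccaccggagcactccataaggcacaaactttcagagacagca
IL6 (chr7:22727060-22727219, plus strand): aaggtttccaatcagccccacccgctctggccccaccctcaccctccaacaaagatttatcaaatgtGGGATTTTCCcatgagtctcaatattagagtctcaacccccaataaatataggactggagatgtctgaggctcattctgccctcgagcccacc

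CXCL1, CXCL2, CXCL3 and CXCL5 all carried GGGAATTTCCC, beginning 79, 78, 79 and 91 bases before the start. CXCL8 had GGAATTTCC at 91 bases and an AP-1-like TGACTCA at 137 bases before the start, and IL6 had GGGATTTTCC at 73 bases. An NF-kB-like match of either spelling was present in 5.13% of 35116 promoter windows of the same length, an AP-1-like match in 7.71% and TATAAA in 7.33%. CCL20 had TATAAA at 29 bases before the start and no match to either NF-kB-like spelling in the window. Other spellings were not searched, so an NF-kB site with other letters could be present. IL1A had 2 overlapping windows that hold the same 2 AP-1-like matches. They begin 105 and 55 bases before 1 start, and 12 bases before and 38 bases after the other. Aligned over their 300 bases, the CXCL1 and CXCL3 windows were 82.5% identical, CXCL1 and CXCL2 71.9%, CXCL1 and CXCL5 55.3% and CXCL1 and CXCL8 45.2%. Windows of other genes were not aligned, so no background is given for these shares. A match describes letters only and is neither a bound site nor a cause.

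Medians of single arrays were 2.85 to 2.96 (log2). The 8 epithelial markers measured, among them KRT8, KRT18 and EPCAM, were above 4 on every array. Of 10 proximal tubule markers 9 were above 4 on no array, with LRP2 at most at 3.32 and CUBN at most at 2.22, so these defining transcripts of the labelled cell type were not above background. All 8 leukocyte markers were above 4 on no array, with PTPRC between 2.86 and 3.12 and CD14 between 2.15 and 2.19, and their summed log2 level was 19.4 to 19.7 in controls and 19.5 to 20.1 under CsA at 12 h and 19.5 to 19.7 and 19.6 to 19.8 at 48 h. Of 8 fibroblast and pericyte markers 5 were above 4 on every array, including DCN, LUM and COL1A1, while PDGFRA, PDGFRB and COL3A1 stayed below 3. Their summed level was 49.8 to 51.1 in controls and 49.4 to 50.8 under CsA at 12 h and 48.9 to 52.7 and 47.6 to 52.9 at 48 h, and its part in the results was not tested. In bulk RNA a lower share of cells that make a transcript and less of it per cell cannot be told apart.

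CXCL1, CCL2 and IL1A, a neutrophil chemokine, a monocyte chemokine and an alarm cytokine, were not above background on any array, with or without CsA. CXCL1 (probe set 204470_at) ranged from 2.48 to 2.56, CCL2 (216598_s_at) from 2.39 to 2.46, and IL1A (210118_s_at) from 2.51 to 2.67, and 0 of 12 arrays were above 4 for each. A second IL1A probe set, 208200_at, ranged from 2.33 to 2.37. These values are those of the probe sets named, and differences between groups in these 3 genes were not read as effects. A probe set at the floor need not mean an absent transcript. For CXCL2, 230101_at was at most at 2.59 while 209774_x_at reached 10.64. CXCL1 and CCL2 had 1 probe set each, so a silent probe set and an absent transcript cannot be told apart there. Within the chromosome 4 cluster, whose protein-coding genes run in the order CXCL8, CXCL6, PF4V1, CXCL1, PF4, PPBP, CXCL5, CXCL3, CXCL2, the tested genes were CXCL8, CXCL5, CXCL3 and CXCL2. Between them CXCL6 reached at most 2.51, PF4V1 3.00, PF4 2.37 and PPBP 2.26. Thus the probe sets used were above 4 at both ends of the cluster, while those of the genes between CXCL8 and CXCL5 stayed below 4.

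**Figure D1:**
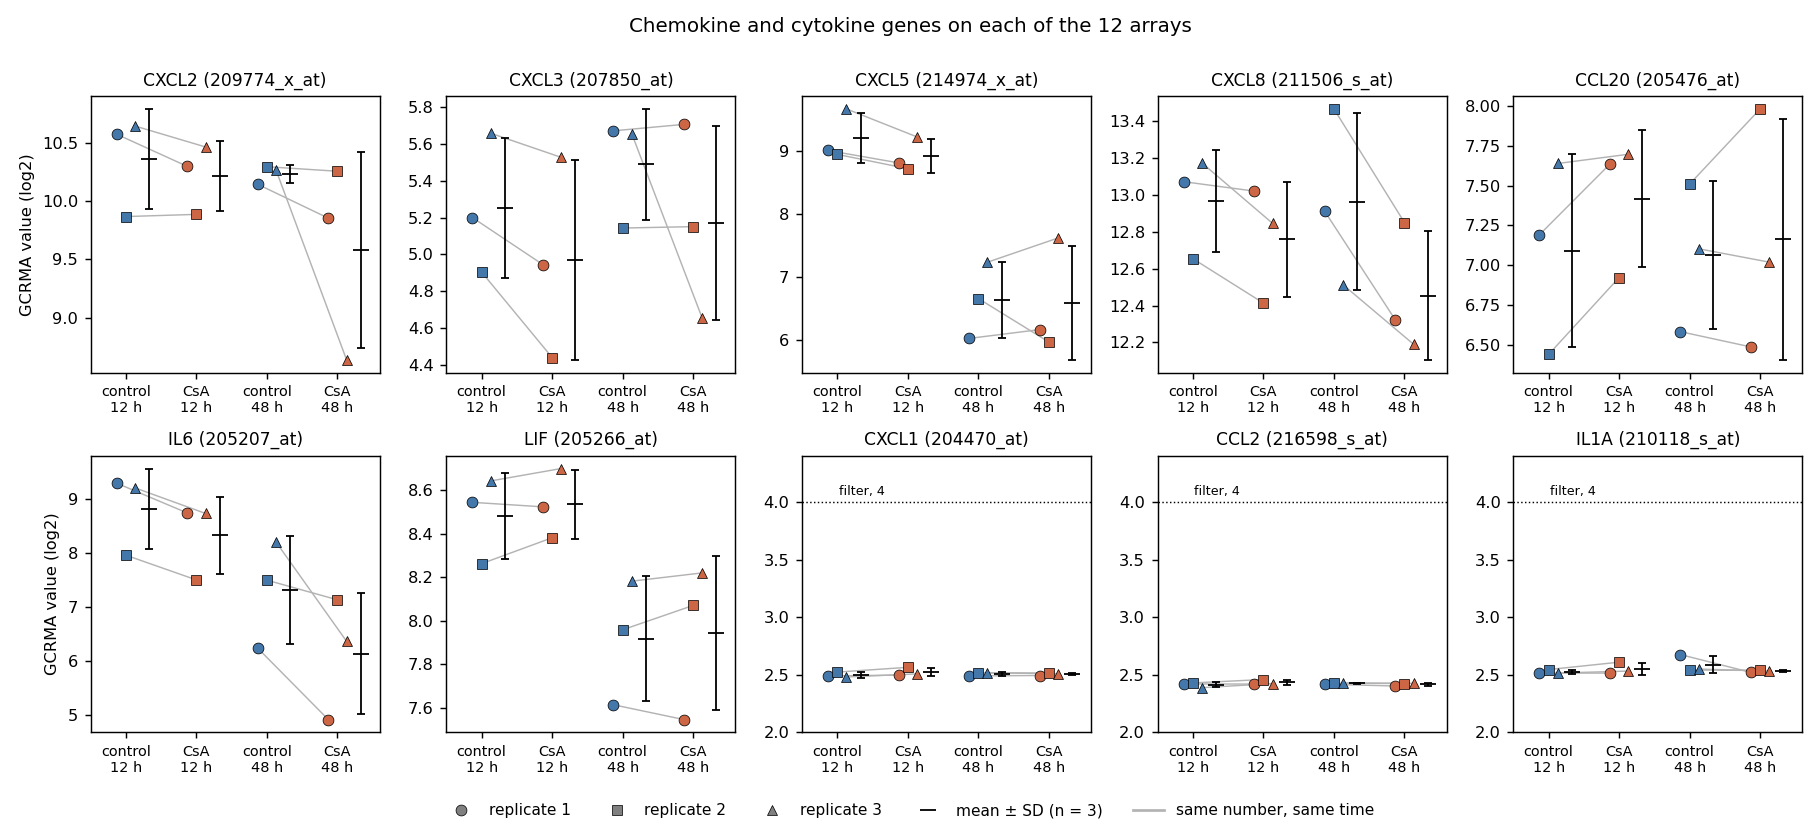
The log2 GCRMA value of each of the 10 genes on each array, by group (x axis), with the group mean and SD (n = 3) beside the points, marker shape for the replicate number and grey lines joining CsA and control arrays of the same number and time; each panel has its own axis. CXCL5 sits between 8.72 and 9.67 at 12 h and between 5.97 and 7.62 at 48 h in either treatment, and CXCL1, CCL2 and IL1A stay below the filter value of 4 on all arrays.

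The first comparison asked whether CsA changed these transcripts at 12 h. None of the 7 tested genes passed the test, 5 lay below their controls and 2 above, and the CsA and control arrays overlapped for every member. IL6, the cytokine that drives the acute-phase response, was at 9.29, 7.95 and 9.20 in control replicates 1, 2 and 3 and at 8.74, 7.50 and 8.73 in the CsA replicates (log2). Replicate 2 was the low array in each group, so the groups overlapped although CsA was the lower array in every pair. The IL6 pair differences were -0.55, -0.46 and -0.47, with a mean of -0.49 ± 0.05 (SD, n = 3 pairs). In the limma fit of all 12 arrays the IL6 change was -0.49 (SE 0.66, 95% confidence interval -1.95 to 0.96, adjusted p = 1.00), and with the pairs as a block it was the same with an SE of 0.24 (adjusted p = 0.72). Without CsA replicate 2 the unpaired IL6 change was -0.08 and without control replicate 2 it was -0.92. Here and below, an array left out leaves its same-numbered partner in the unpaired fit. Such values therefore also hold the difference between replicates, and whole pairs were not left out.

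The neutrophil chemokines followed at 12 h with small differences. CXCL8, the main neutrophil attractant of human epithelium, was at 13.07, 12.65 and 13.17 in control and 13.02, 12.41 and 12.85 under CsA, with pair differences of -0.05, -0.24 and -0.33. CXCL3 was at 5.20, 4.90 and 5.66 in control and 4.94, 4.44 and 5.53 under CsA, with pair differences of -0.26, -0.46 and -0.13. CXCL5 was at 9.01, 8.95 and 9.67 in control and 8.81, 8.72 and 9.23 under CsA, with pair differences of -0.20, -0.23 and -0.44. For these 3 genes the CsA array was the lower of every pair, and the difference was within the spread between replicates. CXCL2 was at 10.57, 9.87 and 10.64 in control and 10.30, 9.89 and 10.46 under CsA, so pair 2 differed by only 0.02. The fitted changes were -0.21 (SE 0.27) for CXCL8, -0.28 (SE 0.33) for CXCL3, -0.29 (SE 0.43) for CXCL5 and -0.15 (SE 0.36) for CXCL2. Single arrays moved them: CXCL8 was at -0.033 without CsA replicate 2 and -0.36 without control replicate 2, CXCL3 at -0.018 without CsA replicate 2 and -0.56 without CsA replicate 3, and CXCL5 at -0.059 without control replicate 3 and -0.44 without CsA replicate 3. The second CXCL8 probe set, 202859_x_at, was at 12.79, 12.73 and 12.77 in control and 12.81, 12.71 and 12.68 under CsA, a difference of -0.03 with pair 1 higher under CsA.

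CCL20, which attracts CCR6-bearing dendritic cells and lymphocytes, lay above its control in every pair at 12 h. It was at 7.19, 6.44 and 7.64 in control and 7.63, 6.92 and 7.70 under CsA, with pair differences of 0.44, 0.48 and 0.06. Its change was 0.33 (SE 0.42, 95% confidence interval -0.60 to 1.26, adjusted p = 1.00 in limma), and 0.69 was its adjusted p with the pairs as a block. The CCL20 change was 0.0032 without control replicate 2 and 0.60 without control replicate 3. LIF, an IL6 family cytokine, was at 8.54, 8.26 and 8.64 in control and 8.52, 8.38 and 8.70 under CsA, a change of 0.05 (SE 0.20). Over the 7 genes the median change was -0.21, against -0.01 over all genes tested, of which 54.7% were below 0.
At 12 h limma called 0 of the 7 members, and 0% of the 10508 genes tested. At an unadjusted p under 0.05 it held 0 members and 138 genes, or 1.31%. The paired fit called 0 members and 3 genes, or 0.0285%.

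At 48 h IL6 and CXCL8 were again at lower values under CsA in every pair, and 0 of the 7 genes passed. IL6 was at 6.23, 7.49 and 8.19 in control and 4.91, 7.13 and 6.36 under CsA, with pair differences of -1.32, -0.36 and -1.84. The highest CsA array lay above the lowest control array, so the groups overlapped. The IL6 change was -1.17, a level 2.26-fold lower (SE 0.66 on the log2 scale, 95% confidence interval -2.63 to 0.28, adjusted p = 1.00 in limma). With the pairs as a block the interval was -1.74 to -0.60, with an unadjusted p of 0.0019 and an adjusted p of 0.32. The value was -0.56 without CsA replicate 1, -0.73 without control replicate 3, -1.71 without control replicate 1 and -2.04 with array weights.

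CXCL8 was at 12.91, 13.47 and 12.51 in control and 12.32, 12.85 and 12.19 under CsA at 48 h. Its pair differences of -0.59, -0.62 and -0.32 had a mean of -0.51 ± 0.16 (SD, n = 3 pairs), a 1.42-fold lower level, while the groups overlapped because replicate 2 was high in both. The unpaired interval was -1.11 to 0.09 (limma, adjusted p = 1.00) and the paired interval -0.73 to -0.29 (unadjusted p = 9.67e-04, adjusted p = 0.27). The second CXCL8 probe set differed by -0.34 at this time. The value for CXCL8 was -0.26 without control replicate 2, -0.73 without control replicate 3 and -1.02 with array weights, whose estimation did not always converge. CXCL8 and IL6 were the 2 members with an unadjusted p under 0.05 in the paired fit, where 12.3% of all genes were under it.

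CXCL2 and CXCL3 at 48 h turned on 1 array. CXCL2 was at 10.14, 10.29 and 10.26 in control and 9.85, 10.26 and 8.64 under CsA. CXCL3 was at 5.67, 5.14 and 5.66 in control and 5.71, 5.15 and 4.65 under CsA. In each gene CsA replicate 3 was the low array, with a pair difference of -1.63 for CXCL2 and with 4.65 against 5.66 for CXCL3, while the other pairs of either gene were between -0.29 and 0.03. The fitted changes of -0.65 (SE 0.36) and -0.32 (SE 0.33) became -0.18 and -0.06 without that array, -0.99 for CXCL2 without CsA replicate 2 and -0.59 for CXCL3 without CsA replicate 1.

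CXCL5, CCL20 and LIF showed no shared direction at 48 h. CXCL5 was at 6.03, 6.66 and 7.24 in control and 6.17, 5.97 and 7.62 under CsA, with pair differences of 0.14, -0.69 and 0.38. CCL20 was at 6.58, 7.51 and 7.10 in control and 6.49, 7.98 and 7.02 under CsA, so that its higher level under CsA at 12 h was seen in 1 of 3 pairs at 48 h. LIF was at 7.62, 7.96 and 8.18 in control and 7.55, 8.07 and 8.22 under CsA, with pair differences of -0.07, 0.11 and 0.04. LIF had the narrowest paired interval of the 7 genes at 48 h, from -0.15 to 0.20, while that of CXCL5 ran from -0.51 to 0.40.
The median change of the 7 genes was -0.32, against -0.02 over all genes tested, of which 54.7% were below 0. At 48 h limma called 0% of the genes tested and 0 members, with 265 genes (2.52%) and 0 members at an unadjusted p under 0.05, and with the pairs as a block it also called 0 members and 0% of genes. Both CsA comparisons were within the overlap of their groups for all 7 members, where groups did not overlap for 11.9% of all genes at 12 h and 4.49% at 48 h.

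**Figure D2:**
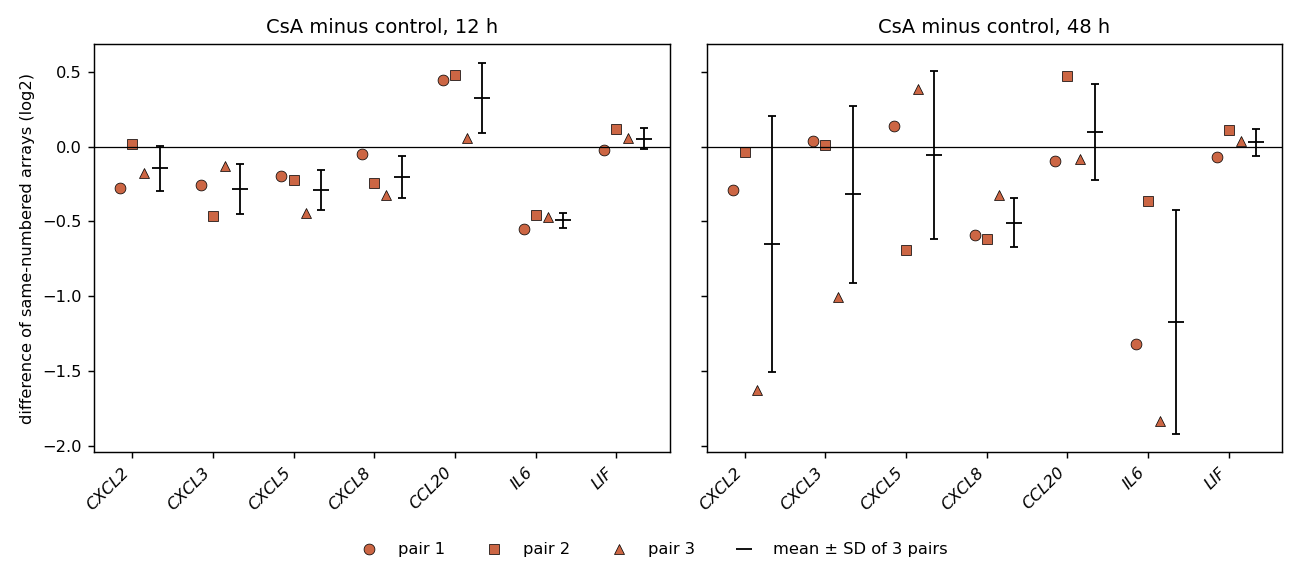
CsA minus control for arrays of the same replicate number (y axis, log2) for the 7 tested genes at 12 h and 48 h, with the mean and SD of the 3 pairs in black. IL6 and CXCL8, by the probe sets used, are below 0 in all pairs at each time, IL6 pairs span -0.55 to -0.46 at 12 h and -1.84 to -0.36 at 48 h, and pair 3 sets the CXCL2 and CXCL3 means at 48 h.

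Whether the CsA effect differed between the times was tested as a difference of differences, and 0 of 7 members and 0% of genes passed (limma, 162 genes, or 1.54%, and 0 members at an unadjusted p under 0.05). The IL6 effect at 48 h minus that at 12 h was -0.68 (95% confidence interval -2.74 to 1.38, adjusted p = 1.00), and with the pairs as a block -1.49 to 0.13. For CXCL8 it was -0.30 (-1.15 to 0.54) and for CXCL2 -0.51 (-1.65 to 0.63). The IL6 value was -0.069 without CsA 48 h replicate 1, that of CXCL8 -0.051 without control 48 h replicate 2 and that of CXCL2 -0.034 without CsA 48 h replicate 3. With array weights, whose estimation did not always converge, IL6 was at -1.58 and CXCL8 at -0.85. These intervals leave room for effects of either sign.

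Between 12 h and 48 h 1 of the 7 genes changed in each treatment, and it was CXCL5. CXCL5 (probe set 214974_x_at), a neutrophil chemokine of epithelial cells, fell 5.92-fold in controls, from 9.21 ± 0.40 at 12 h to 6.64 ± 0.60 at 48 h (log2, SD, n = 3), and 5.03-fold under CsA, from 8.92 ± 0.27 to 6.59 ± 0.90. The 12 h and 48 h arrays did not overlap in either treatment. The changes were -2.57 (SE 0.43, limma adjusted p = 0.0037) and -2.33 (SE 0.43, adjusted p = 0.0092), and their difference was 0.23 (95% confidence interval -1.12 to 1.58). The call in controls held in all 23 alternatives, whereas the call under CsA was lost in a fit of the 6 CsA arrays alone (adjusted p = 0.067, and 0.14 with a block), where 34 genes passed without the block and 0 with it. Arrays of the 2 times may also differ in handling that the labels do not give, which cannot be told apart from time.

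CXCL5 was the 1 member called in each treatment. In controls 13.7% of all genes were called lower and 12.5% higher, and under CsA 7.58% lower and 6.77% higher. Those shares sum to 26.2% and 14.4%, and 1 of 7 members lower is near the background.

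IL6 and LIF were also lower at 48 h, without passing in the unpaired fit. IL6 was at 8.81 ± 0.75 and 7.31 ± 1.00 in controls at 12 h and 48 h, a change of -1.51 (SE 0.66, limma adjusted p = 0.11). Under CsA it was at 8.32 ± 0.71 and 6.13 ± 1.13, a change of -2.19 (SE 0.66, adjusted p = 0.0502), and here the arrays did not overlap. With arrays of the same number and time as a random block the IL6 change under CsA passed (adjusted p = 0.031) and that in controls did not (0.074). LIF was at 8.48 ± 0.20 and 7.92 ± 0.29 in controls and at 8.53 ± 0.16 and 7.95 ± 0.35 under CsA, with no overlap between times in either treatment. Its changes were -0.56 (SE 0.20, adjusted p = 0.060) and -0.59 (SE 0.20, adjusted p = 0.074), and with the random block each passed (adjusted p = 0.034 and 0.043). That fit called 2 members lower in controls and 3 under CsA, where 26.8% and 15.1% of all genes were called, 14% and 8.27% lower.

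For LIF in controls the call also appeared without CsA 48 h replicate 1 (adjusted p = 0.028), CsA 48 h replicate 3 (0.037) or control 48 h replicate 3 (0.037). Under CsA it appeared without CsA 48 h replicate 3 (0.022). The IL6 call under CsA appeared without CsA 48 h replicate 2 (0.046), CsA 48 h replicate 3 (0.038), control 48 h replicate 1 (0.040) or control 48 h replicate 3 (0.045). Control 48 h replicate 1 was the low IL6 control, and without it the change in controls was -0.97.

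CXCL8, CCL20, CXCL2 and CXCL3 did not pass the test of time. In controls their changes were -0.0029 (95% confidence interval -0.60 to 0.60), -0.02 (-0.96 to 0.91), -0.13 (-0.93 to 0.68) and 0.24 (-0.50 to 0.97). Under CsA they were -0.31 (SE 0.27), -0.26 (SE 0.42), -0.63 (SE 0.36) and 0.20 (SE 0.33). The CXCL2 value was -0.16 without CsA 48 h replicate 3. With 1 array left out CXCL3 in controls ran from 0.06 to 0.44, and under CsA CXCL8 from -0.50 to -0.17 and CXCL2 from -0.97 to -0.16. CXCL5 and CXCL3 are neighbours in the cluster and both carry the GGGAATTTCCC letters printed above. CXCL5 passed the test of time and CXCL3, at 0.24 and 0.20, did not, and the difference between the 2 genes was not tested. Over the 7 genes the median change with time was -0.13 in controls and -0.59 under CsA, against 0.01 over all genes in each. Members whose arrays did not overlap between times were 2 of 7 in controls (CXCL5 and LIF) and 3 of 7 under CsA (CXCL5, IL6 and LIF), all lower at 48 h, where 25.2% and 18.9% of all genes did not overlap and were lower.

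**Figure D3:**
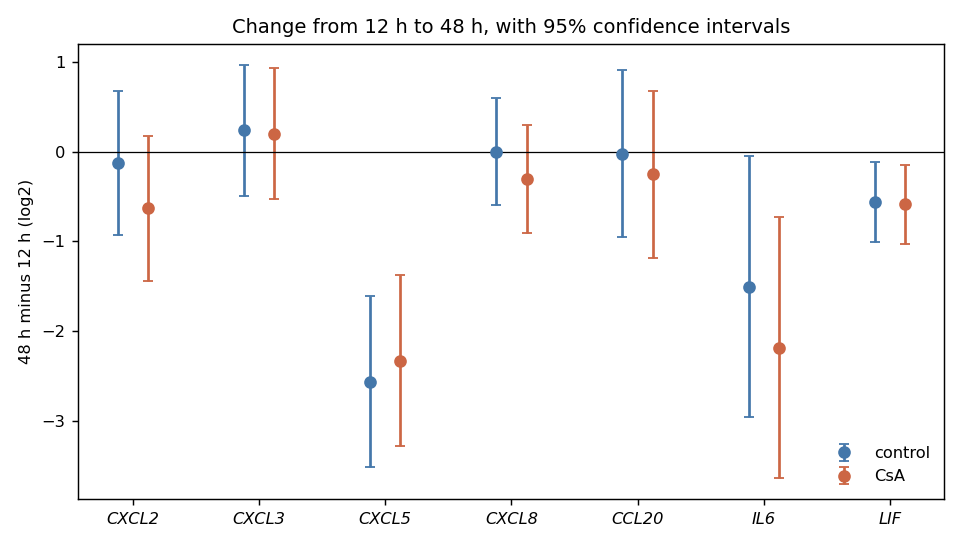
Change from 12 h to 48 h (y axis, log2) of the 7 tested genes in control and CsA cells, with the 95% confidence interval of the limma fit of 12 arrays. CXCL5 is at -2.57 in controls and -2.33 under CsA, IL6 at -1.51 and -2.19, LIF at -0.56 and -0.59, and the intervals of the other 4 genes include 0.

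The members' SD within a group was above that of the median gene in every group, except that of CXCL2 in control 48 h (0.08). At 12 h replicate 2 was the lowest array of both the control and the CsA group for all 7 genes, while that was so for 26.7% of the 10508 genes tested. IL6 stood 0.86 below its group mean in control replicate 2 and 0.82 below in CsA replicate 2, counted as deviations of -0.86 and -0.82. At 48 h the order was not shared: replicate 1 was lowest in both groups for 3 members and replicate 3 for 1. The SD of IL6 within a group was 0.75, 0.71, 1.00 and 1.13 in control 12 h, CsA 12 h, control 48 h and CsA 48 h, larger than that of 99.6%, 99.5%, 98.9% and 97.2% of genes. LIF had an SD of 0.20, 0.16, 0.29 and 0.35 in the same groups, where the median gene had 0.12, 0.12, 0.21 and 0.28. What a replicate number stands for is not in the labels.

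Other probe sets showed which values rest on more than 1 measurement. CXCL5 was also read by 215101_s_at, which went from 7.52 to 4.15 in controls and from 7.12 to 4.30 under CsA. Its changes of -3.37 and -2.82 had the same direction, and 9 of 12 arrays were above 4. Below 4 were control 48 h replicates 1 and 2 (3.58 and 3.91) and CsA 48 h replicate 1 (3.90), so background limits these sizes. Probe set 207852_at never exceeded 3.07. CXCL8 was read by 202859_x_at between 12.48 and 13.38. For CXCL2 the probe set used, 209774_x_at, was the only one of 3 above 4, with 1569203_at at most at 3.65 and 230101_at at most at 2.59. In Affymetrix naming the ending _x_at marks probes that may also match other transcripts, and the CXCL1, CXCL2 and CXCL3 transcripts are close copies. The probe set used for CXCL5, 214974_x_at, and the second one for CXCL8 have the same ending. Values of CXCL2 and CXCL5 are therefore those of the probe sets named. CXCL3, CCL20, IL6, LIF, CXCL1 and CCL2 had 1 probe set each.

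**Figure D4:**
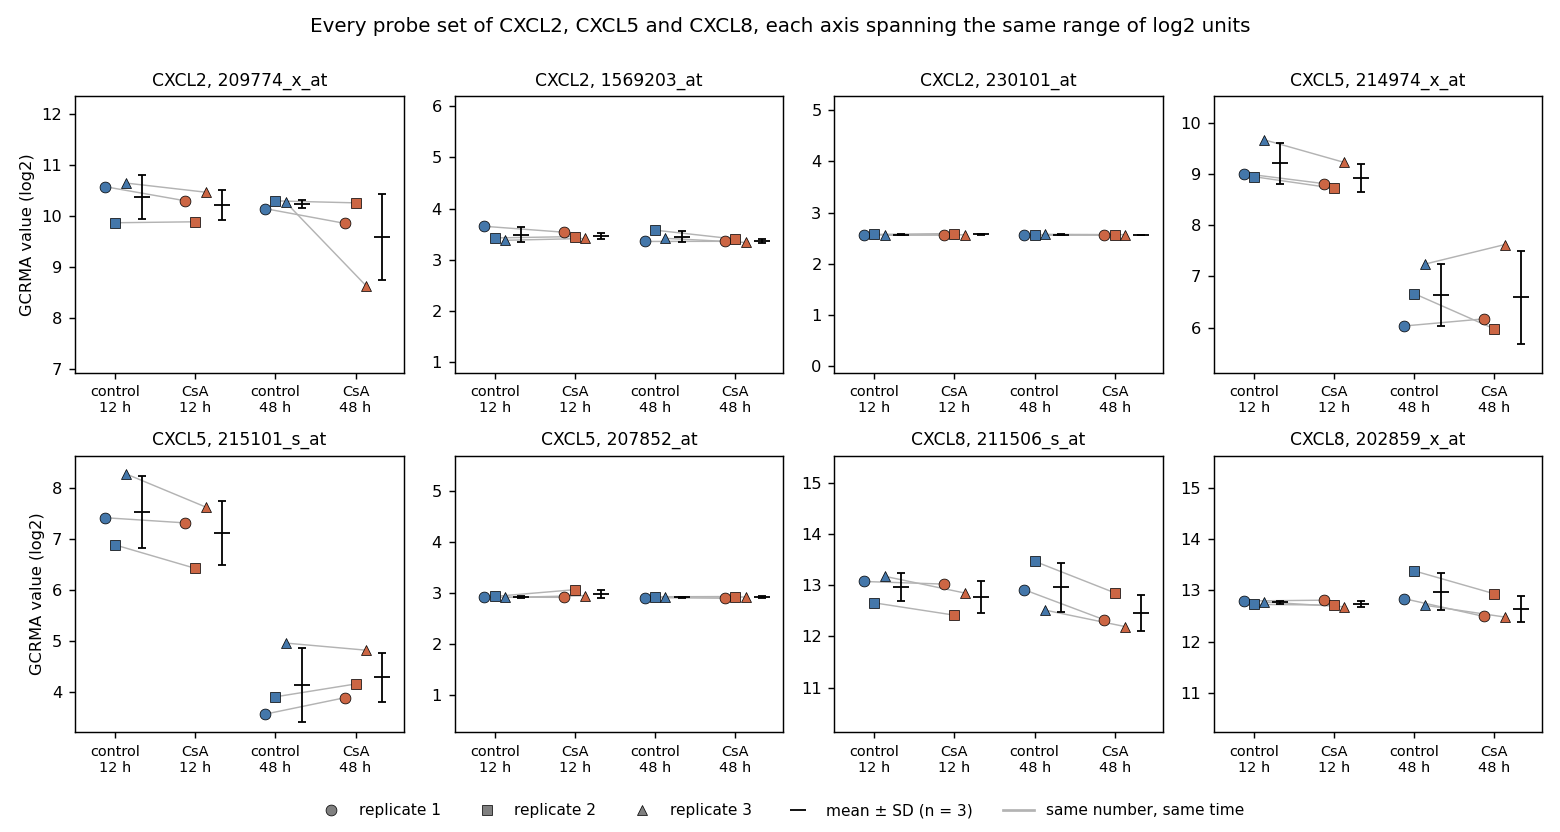
The log2 value on each array (y axis) of all 8 probe sets of CXCL2, CXCL5 and CXCL8 by group, each axis spanning the same number of log2 units, with group means and SD (n = 3) and grey lines for same-numbered arrays. Both CXCL5 probe sets that are above 4 at 12 h are lower at 48 h, and 1 of the 3 CXCL2 probe sets is above 4.

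By the probe sets used, the receptors for the neutrophil chemokines were not above background. CXCR1 and CXCR2 reached at most 1.99 and 3.26, and CCR2 and CCR6, which bind CCL2 and CCL20, at most 2.04 and 2.87. The receptor chains for IL6 and LIF were present, with IL6R between 7.66 and 8.41, IL6ST between 11.98 and 12.51 and LIFR between 4.79 and 6.09. Of 13 receptor genes 6 were tested and 0 passed for CsA at either time, where the unpaired fit called 0% of all genes. IL1RAP was at 0.17 and IL6R at -0.09 at 12 h, and IL1RAP at -0.34 and LIFR at -0.30 at 48 h. In controls IL1RAP, the IL-1 receptor accessory chain, rose by 0.88 from 12 h to 48 h (SE 0.21, limma adjusted p = 0.016), and IL1R2, the decoy receptor for IL-1, fell by 1.48 (SE 0.40, adjusted p = 0.023). Under CsA IL1R2 fell by 1.50 (adjusted p = 0.033). Its mean at 48 h was 3.55 in controls and 3.56 under CsA, below 4, so these sizes are limited by background and may understate the fall. IL1R2 thus passed the filter only through 12 h arrays, where it was high. Such a choice favours a fall with time, so its adjusted p-values are not taken as support for one.

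Of the other secreted signals most were below background. Of 20 other chemokines on the array 2 were tested, CX3CL1 and CCL28, and neither passed in any comparison. Over all genes 0% passed for CsA at either time, and 26.2% in controls and 14.4% under CsA with time. For CsA they were at -0.06 and 0.07 at 12 h and at 0.26 and 0.10 at 48 h. Of 28 other cytokines 10 were tested, and in controls 3 fell with time, where 13.7% of all genes were called lower. IL32, a proinflammatory cytokine, fell by 1.06 (SE 0.21, limma adjusted p = 0.0072), LTB, lymphotoxin beta, by 1.18 (SE 0.33, adjusted p = 0.026), and HMGB1, a nuclear protein released as an alarm signal, by 0.89 (SE 0.26, adjusted p = 0.031). With the random block LTB did not pass in controls (adjusted p = 0.095). Under CsA IL32, LTB and HMGB1 were at -0.69, -0.68 and -0.84, and 0 of the 10 passed, where 7.58% of all genes were called lower. With the random block IL32 (adjusted p = 0.034) and HMGB1 (0.031) passed under CsA, where 8.27% of all genes were called lower. LTB was at -0.63 (SE 0.33) for CsA at 12 h and IL32 at 0.23 (SE 0.21) for CsA at 48 h, and IL17C was at 0.05 and -0.04, the largest statistics of that list at each time.

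None of the genes that carry NF-kB signals passed for CsA, where the unpaired fit called 0% of all genes. Of 17 tested subunits, kinases and feedback genes 12 were below 0 at 12 h and 14 at 48 h, with medians of -0.07 and -0.05, and 0 passed. Of all genes tested 54.7% were below 0 at each time, with medians of -0.01 and -0.02, and the difference from them was not tested. RELB, a subunit, was at -0.61 (SE 0.37) and NFKB2 at -0.16 (SE 0.12) at 12 h, and TNFAIP3, a feedback inhibitor, was at -0.66 (SE 0.30) and NFKB2 at -0.21 (SE 0.12) at 48 h. With time CYLD, a deubiquitinase that restrains NF-kB, rose by 1.05 in controls (SE 0.29, limma adjusted p = 0.027) and by 1.16 under CsA (adjusted p = 0.029). TNIP1, another inhibitor, fell by 0.45 in controls (adjusted p = 0.017).

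Of 17 tested genes known to answer to NF-kB, 5 fell with time in controls, where 13.7% of all genes were called lower, and 3 under CsA, where 7.58% were, and 0 rose in the fit without a block. With the random block IRF1 was called higher in controls (change 1.33, adjusted p = 0.043), TNFAIP8 was not called there (0.061), and MMP1 was called lower under CsA (change -2.08, adjusted p = 0.040); these 3 are named because the block changed their calls. TNFAIP6, a hyaluronan-binding protein, fell by 4.72 in controls (SE 0.73, limma adjusted p = 0.0025) and fell by 4.54 under CsA (adjusted p = 0.0057). Its 48 h means of 4.02 and 3.64 were at or below the background level of 4, so these sizes may understate the fall. With such means TNFAIP6 may have passed the filter through its 12 h arrays alone, a choice that favours a fall with time. VCAM1, a leukocyte adhesion molecule, fell by 1.86 (adjusted p = 0.011) and 1.57 (adjusted p = 0.032), and PLAUR, the urokinase receptor, by 1.87 (adjusted p = 0.017) and 1.81 (adjusted p = 0.030). ICAM1 was at -0.35 (SE 0.15) and IER3 at -0.39 (SE 0.21) for CsA at 48 h, and BMP2 at -0.26 (SE 0.23) and ICAM1 at -0.14 (SE 0.15) at 12 h, none of which passed.

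Of the genes for signalling by IL-1 and TNF 12 were tested, and of those for IL6 and LIF 14. For CsA 0 passed at either time, where the unpaired fit called 0% of all genes. MYD88, the adaptor of IL-1 and Toll-like receptors, fell by 0.91 in controls (SE 0.12, limma adjusted p = 0.0016) and by 0.88 under CsA (adjusted p = 0.0046). TOLLIP, which dampens that pathway, rose by 0.42 and 0.34 (adjusted p = 0.012 and 0.039), the latter not with the random block (0.060), and TAB2 rose by 0.67 in controls (adjusted p = 0.029). TNFRSF1A, the main TNF receptor, fell by 0.49 under CsA (adjusted p = 0.046), a call lost with the random block (0.066). CEBPB, a transcription factor of IL6 and acute-phase genes, rose by 1.60 in controls (SE 0.36, adjusted p = 0.012), BCL6 was called there only with the random block (change 0.77, adjusted p = 0.038), and JAK1, a kinase of IL6ST, fell by 0.36 and 0.43 (adjusted p = 0.027 and 0.022). For CsA at 12 h SOCS3, the feedback inhibitor that IL6 induces, was at -0.44 (SE 0.29), CEBPD at -0.29 (SE 0.19), IRAK2 at 0.30 (SE 0.29) and MYD88 at -0.10 (SE 0.12). At 48 h PIM1 was at 0.36 (SE 0.21), CEBPB at -0.49 (SE 0.36), IRAK2 at -0.32 (SE 0.29) and TAB2 at -0.22 (SE 0.19).

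Genes listed for the decay of AU-rich messages, the class to which many cytokine transcripts belong, were all 16 above the filter. The list holds enzymes of decay as well as proteins that bind such messages. In controls AUH rose by 1.17 with time (SE 0.18, limma adjusted p = 0.0026), while DCP2, a decapping enzyme, fell by 0.90 (adjusted p = 0.0053), ELAVL1, a stabilising protein, by 0.52 (adjusted p = 0.0067) and ZFP36L2, a decay factor, by 0.60 (adjusted p = 0.045). Under CsA AUH rose by 0.99 (adjusted p = 0.0087) and DCP2 fell by 0.65 (adjusted p = 0.030). ZFP36, or tristetraprolin, was at -0.17 (SE 0.10) and CNOT1 at -0.13 (SE 0.09) for CsA at 12 h, and TIA1 at 0.23 (SE 0.12) and ELAVL1 at 0.19 (SE 0.10) at 48 h. Over the 8 lists 0 of 94 tested genes passed for CsA at 12 h or at 48 h, where the unpaired fit called 0% of all genes. With time 21 of 94 passed in controls, 6 higher and 15 lower, or 22.3% against 26.2% of all genes, and 11 under CsA, 3 higher and 8 lower, or 11.7% against 14.4%.

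Outside these lists, the genes nearest to each member were found by the root mean square difference of log2 profiles over the 12 arrays, each gene centred on its mean. CXCL8 lay nearest to EPHA2, a receptor tyrosine kinase, at 0.16, followed by BYSL and MLLT3 at 0.20 and 0.22, where the median gene was at 0.45. LIF lay nearest to PSMB3, a proteasome subunit, at 0.09, against a median of 0.43, followed by SNRPD2 at 0.10 and PSMD2 at 0.11. CXCL5 was nearest to CCBE1, DPYSL3 and EFHD2, at 0.30, 0.31 and 0.33 against a median of 1.34, and IL6 to ITGB1-DT, C1orf116 and INHBA, a subunit of activin, at 0.49, 0.49 and 0.50 against 1.28. CCL20 was nearest to CELF2 at 0.24, with STK32B and MYC at 0.28. CXCL2 was nearest to METTL4, HEMK2 and ABHD5, each at 0.22, and CXCL3 to GPATCH1, LIAS and TMEM223 at 0.19, 0.20 and 0.21. Among the members the closest profiles were those of CXCL2 and CXCL8 at 0.35, and the most distant those of CXCL3 and CXCL5 at 1.48. These distances describe 12 arrays that share 2 times and numbered pairs, and no test was made of them.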

How the data were processed

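Total RNA from HK-2 cells was profiled on 12 Affymetrix arrays. The deposited values are log2 expression values per probe set that the authors computed by GCRMA, as the processing notes from the submitters name it. This method corrects background by probe sequence and normalises by quantiles, so values near the floor are compressed. Its version is not given in the sources used here, and the log2 scale was read from the values (0.68 to 16.0). Of 54675 probe sets 41091 had 1 gene symbol, 1801 several and 11721 none, and 62 control probe sets were left out. Symbols come from GEO's platform annotation, checked through gene identifiers against RefSeq, where 54 probe sets had no match.

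Per gene the probe set with the highest mean was used. Genes above 4 on at least 3 arrays of a group entered a limma fit (version 3.58.1, R 4.3.3) of 4 group means over 12 arrays (8 residual degrees of freedom), two-sided, p-values being adjusted over all 10508 by Benjamini-Hochberg and called below 0.05. Same-numbered CsA and control arrays deviated together from their group means (correlations across genes 0.37, 0.53 and 0.59 at 12 h and 0.78, 0.54 and 0.74 at 48 h). On that evidence, and not the labels, pair differences and paired fits are given beside the unpaired fit, which did not use the pairs. For CsA the unpaired fit held 1.31% of genes at an unadjusted p under 0.05 at 12 h and 2.52% at 48 h. The paired fit held 7.28% and 12.3%. Where pairs deviate together the unpaired fit overstates the error of a CsA difference, so its p-values for CsA are cautious. Between times the arrays were not paired. Fits with the pairs as a block, fixed for the CsA comparisons and random for the changes with time, are given beside members and pathway genes whose calls they change. Alternatives covered the block, the arrays used, moderation, filters, probe sets, centring, weights and each array left out. In simulated data for CsA against control at 48 h over 10508 genes, the unpaired fit recovered 94 of 100 genes changed by 2 and 63 of 100 changed by 1 (log2), with 9 false calls. The paired fit recovered 88 and 48, with 8 false calls. The simulated noise was independent between arrays, without the pairs seen in the data, and the changed genes were drawn at random. Most members spread more than the median gene, so these counts do not give the power for the members. The number of arrays limits the precision.

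The members and gene lists were chosen with earlier results of these data known. One alternative, a filter above 4 on any 3 of the 12 arrays, was chosen after seeing the data. Named genes were all members, from each list at most 3 rising and 3 falling genes past the threshold or otherwise the 2 with the largest statistic, and the 3 nearest profiles. Promoters are from RefSeq, GRCh38.p14. Of 158 listed pathway genes 145 had a probe set here. Sums of marker lists use all their measured genes.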

Additional observations from a re-analysis of the deposited data

Results flagged for a closer look

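IL1A drew attention because its numbered pairs lay on opposite sides of 0 at the 2 times. CsA minus control averaged 0.027 at 12 h, with all 3 pairs above 0, and -0.059 at 48 h, with all 3 pairs below 0. Pair 1 at 12 h was at only 1.8e-04. The 48 h pairs were at -0.155, -0.0043 and -0.017, so pair 1 set most of that mean. All 12 arrays were below 4, where values are not above background, and the difference between the times was not tested. Groups of 3 arrays were not examined for single outlying arrays.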

How the results depend on the processing

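For the CsA comparisons of either time, and for the difference between their effects, 0 members passed under every alternative run. In controls the count of members changed with time was 1 as reported, 2 with the replicate block across times or as a random effect, 3 with array weights and 1 to 2 when 1 array was left out. Under CsA it was 1 as reported, 3 with the replicate block across times or as a random effect, 2 with trended robust moderation, with a filter at 6 or with centred array medians, 0 with only the 6 CsA arrays, with or without the block, and 1 to 3 when 1 array was left out. The replicate block within each time changed no call on a member for CsA. CXCL5 was called in 23 of 23 alternatives in controls and 21 of 23 under CsA. Genes called over the whole table ran from 1322 to 5929 in controls (2756 as reported) and from 0 to 3885 under CsA (1508). Of 35 single-gene results 15 turned direction under some alternative, none of them called as reported, and the cause was not tested. With the mean of all probe sets, CXCL5 for CsA at 48 h was 0.028 and CXCL8 with time in controls 0.10. With array weights, whose estimation did not always converge, CXCL3, CCL20 and LIF for CsA at 48 h were 0.16, -0.69 and -0.19, CXCL3 for the difference of effects 0.41, and CXCL8 and CCL20 with time in controls 0.33 and 0.25. An array left out kept its same-numbered partner in the unpaired fit, so these ranges also hold differences between replicates. Leaving out 1 array at a time gave a range across 0 for these: CXCL2 -0.39 to 0.020 and LIF -0.058 to 0.13 for CsA at 12 h. CXCL5 -0.57 to 0.25, CCL20 -0.31 to 0.43 and LIF -0.12 to 0.23 for CsA at 48 h did so too. CXCL3 -0.31 to 0.24, CXCL5 -0.28 to 0.54, CCL20 -0.64 to 0.11 and LIF -0.18 to 0.17 for the difference of effects did so too. CXCL2 -0.37 to 0.014, CXCL8 -0.25 to 0.22 and CCL20 -0.35 to 0.25 with time in controls did so too. CXCL3 -0.069 to 0.48 and CCL20 -0.66 to 0.082 with time under CsA did so too. The number of arrays, 3 a group, and the compression of values near background limit what can be seen.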
